A study of Mus musculus with 45 samples.

Results

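The comparison described here set mouse forelimb buds cultured for 3 h with 50 µM bisphenol A against forelimb buds cultured for the same time with the solvent alone. Its members were the 10 libraries whose sample titles name these groups, 5 vehicle and 5 treated, out of 45 libraries in the series. The vehicle group consisted of CD1 forelimbs taken at gestation day 13 and cultured in medium with dimethyl sulfoxide (DMSO). The treated group consisted of such forelimbs cultured with 50 µM bisphenol A added. Limbs of male and female embryos shared a bottle in both groups, and how many embryos went into a bottle is not stated in the labels. The series also holds cultures in 10 µM bisphenol A and cultures of 24 and 48 h, which are used below only where a dose or time is set beside the 3 h values. Whole limbs were extracted and polyadenylated RNA was sequenced, so each value is an average over all cells of the limb, and fewer cells of a type cannot be told apart from less RNA per cell. Of 31290 genes in the table of this comparison, 16988 had enough reads to be tested.

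Bisphenol A is a monomer of polycarbonate plastics and epoxy resins that is studied mainly as a weak ligand of estrogen receptors. At this stage the forelimb bud holds cartilage condensations that later become bone, with muscle, tendon, vessels, skin and nerve around them. Cells make cholesterol from acetyl-CoA through the mevalonate arm and the sterol ring enzymes, and the transcription factor SREBP2 raises the genes of this route when membranes of the endoplasmic reticulum (ER) hold little sterol. The ER folds secreted proteins, and an excess of unfolded protein there raises chaperone genes through the sensors ATF6, IRE1 and PERK, which is called the unfolded protein response.

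The libraries held 17550186 to 22579557 counted reads in vehicle and 18935484 to 24278672 at 50 µM. One label field of the treated libraries gives 24 hours where the title and the library code give 3 h, and the title was followed. Genes that separate the times placed these libraries with 3 h: Ibsp, a bone matrix gene, lay between 0.530 and 4.32 CPM (counts scaled to a common library size) in them, between 0.0955 and 4.49 CPM in vehicle at 3 h and between 119.4 and 248 CPM in vehicle at 24 h. The mix of male and female limbs differed between libraries. The summed level of the Y-linked genes Ddx3y, Eif2s3y, Kdm5d and Uty was 192, 167, 211, 246 and 166 CPM in vehicle replicates 1 to 5 and 171, 85.6, 99.5, 164 and 99.3 CPM at 50 µM, and Eif2s3y was itself called lower (log2 fold change -0.73 ± 0.15, adjusted p = 0.024). Treated replicates 2, 3 and 5 held far less Y-linked transcript than any vehicle library, while treated replicates 1 and 4 lay next to the lower end of the vehicle range. The gene lists with calls below are therefore also given from a fit with the Y-linked level as a covariate. That level itself differs between the groups. They are also given from the same fit with the 5 libraries of 10 µM and 3 h added. In it 10 µM replicate 4, at 0.0449 CPM, lies far below every other library and weighs most on the slope of the covariate. Calls kept in that larger fit are therefore no test of the part of the sex mix. Whether libraries of 1 group had separate litters or bottles is not stated in the labels, so the p-values measure only the spread between these samples, which may be technical.

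After 3 h, 151 genes were higher and 88 lower at 50 µM than in vehicle, of 16988 tested. A gene was called when edgeR's quasi-likelihood test gave a Benjamini-Hochberg adjusted p below 0.05. The 239 calls were 1.41% of the genes tested, with 0.889% called higher and 0.518% called lower, and 2155 genes had an unadjusted p below 0.05. The counts of called genes in the lists below are to be read beside this 1.41%. Most changes were of moderate size: 14 of the higher and 6 of the lower genes changed at least 2-fold, and 53 and 28 changed at least 1.5-fold. The 5 treated libraries all lay above the 5 vehicle libraries for 140 of the 151 higher genes and all below them for 77 of the 88 lower genes. Over all genes tested, such a separation occurred in 2.39% with the treated libraries above and 1.73% with them below. The authors' deposited table lists 499 genes with an adjusted p below 0.05, 284 higher and 215 lower. The count changed when single libraries were left out, which also lowers the number of samples. It was 151, 186, 141, 174 and 223 without vehicle replicates 1, 2, 3, 4 and 5. Without treated replicates 1, 2, 3, 4 and 5 it was 145, 156, 289, 155 and 144.

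**Figure D1:**
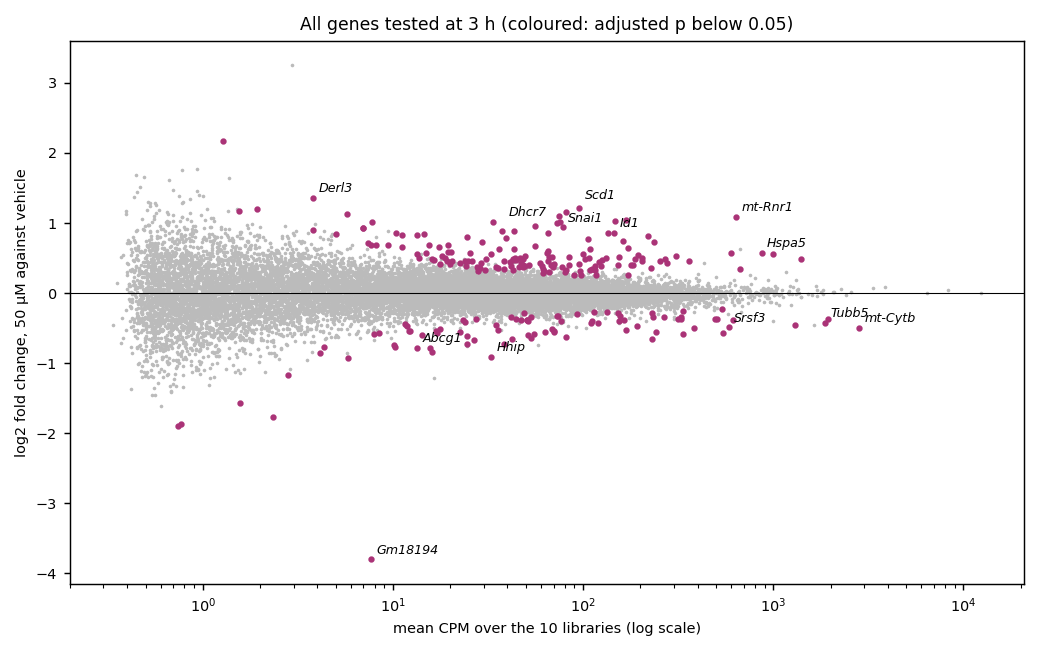
Log2 fold change of 50 µM against vehicle at 3 h (y axis) against the mean CPM over the 10 libraries (x axis, log scale) for the 16988 genes tested; coloured points are the 239 genes with an adjusted p below 0.05. Scd1, Dhcr7, Snai1 and mt-Rnr1 lie near or above a log2 fold change of 1 at high abundance, and Gm18194 is the lowest point.

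The smallest p-values belonged to Dhcr7, Scd1 and Snai1, all higher. The lower genes were led by Tuba1a, Srsf3, Tubb2a, Hnrnpdl and mt-Cytb. The lowest point, the pseudogene Gm18194, was singled out after its values were seen. It measured 0.900, 0.969, 23.4, 29.96 and 16.5 CPM in vehicle and 0.980, 0.733, 0.434, 1.89 and 1.04 CPM at 50 µM, so 2 vehicle libraries were as low as the treated ones and 3 were far above.

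Genes of cholesterol synthesis rose together. Of 22 enzymes from acetyl-CoA to cholesterol, all tested, 19 were called higher and none lower, with a median log2 fold change of 0.75, against 1.41% called and a median of -0.00 over all genes tested. The 3 that were not called were the phosphomevalonate kinase Pmvk (0.41 ± 0.12), the sterol isomerase Ebp (0.16 ± 0.14) and Ggps1 (-0.26 ± 0.09), an enzyme of the branch that leaves the route for protein prenylation.

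In the mevalonate arm, 8 of 10 enzymes rose, with a median log2 fold change of 0.73. Hmgcs1, which makes HMG-CoA, measured 175, 175, 173, 198 and 168 CPM in vehicle replicates 1 to 5 and 316, 279, 316, 283 and 277 CPM in treated replicates 1 to 5. The lowest treated library was far above the highest vehicle library, and the log2 fold change was 0.73 ± 0.07 (SE; adjusted p = 1e-05). Idi1, which isomerises isopentenyl diphosphate, measured 21.9, 23.8, 23.2, 22.3 and 19.7 CPM in vehicle and 46.7, 39.3, 48.2, 45.2 and 43.9 CPM at 50 µM. Its 2 groups stood well apart, with a log2 fold change of 1.01 ± 0.08 (adjusted p = 3e-06). Mvd, Fdps, Fdft1, Acat2 and Mvk rose by 0.96, 1.01, 0.77, 0.51 and 0.49 on the log2 scale. For Mvk and Fdps the treated replicate 3 fell among the vehicle libraries, and these calls were lost in 7 and 4 of the 10 leave-one-out fits.

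After squalene, 11 of 12 enzymes rose, with a median of 0.86. Dhcr7, which makes the last reduction to cholesterol in one of the final branches (GRCm38 chr7:143823145-143848410), measured 52.2, 54.7, 49.0, 46.9 and 49.5 CPM in vehicle and 121, 108, 103, 119.8 and 109 CPM at 50 µM. Again every treated library was far above every vehicle library, and the log2 fold change was 1.15 ± 0.07 (adjusted p = 1.1e-07), the smallest p of all genes together with Scd1 and Snai1. Cyp51, the lanosterol demethylase (chr5:4081145-4104746), measured 97.4, 103, 93.0, 99.1 and 88.4 CPM in vehicle and 224, 175, 203, 197 and 184 CPM at 50 µM, again with no overlap (1.03 ± 0.07). Sqle, which commits squalene to sterols, rose by 0.86 ± 0.08, Lss, the cyclase, by 0.86 ± 0.08, and Msmo1 and Nsdhl, which remove the C4 methyl groups, by 1.01 ± 0.08 and 0.89 ± 0.08. The smaller rises belonged to Tm7sf2 (0.68), Hsd17b7 (0.72), Sc5d (0.50) and Erg28 (0.43).

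Regulators and uptake genes of sterol rose in 6 of 15 cases (median 0.25). Insig1, the ER protein that holds SREBP in place when sterol is plentiful, measured 39.6, 47.0, 50.2, 49.4 and 52.0 CPM in vehicle and 98.8, 93.7, 90.8, 122 and 106 CPM at 50 µM (1.10 ± 0.09; adjusted p = 3.5e-06). Every treated library was far above every vehicle library. Srebf2, which encodes SREBP2, rose from 251 ± 8.39 to 362 ± 25.7 CPM (mean ± SD, n = 5; log2 fold change 0.53 ± 0.06), and the sterol carrier Stard4 rose by 0.67 ± 0.08. Srebf1 (0.25 ± 0.07; called by DESeq2 only), the SREBP escort Scap (0.11 ± 0.07) and the site proteases Mbtps1 (-0.06 ± 0.06) and Mbtps2 (-0.28 ± 0.10) were not called. Of the 6 calls in this list, 4 were left with the Y-linked covariate, 4 with treated replicates 1 and 4 alone, 6 in the covariate fit with the 10 µM libraries and 4 to 6 in the leave-one-out fits, and the list median was 0.14 without vehicle replicate 4. Of 10 genes of sterol efflux, which oxysterol-activated LXR receptors raise, Abcg1 was the single call and it fell. This cholesterol exporter measured 16.7, 16.2, 16.9, 16.5 and 18.5 CPM in vehicle and 9.46, 10.1, 8.58, 12.2 and 9.06 CPM at 50 µM (-0.78 ± 0.11; adjusted p = 0.001), with no overlap between groups. The Abcg1 call was lost with the Y-linked covariate and with treated replicates 1 and 4 alone, and was made when the 10 µM libraries joined the covariate fit. Its relative Abca1 had -0.46 ± 0.12 and was not called by edgeR (adjusted p = 0.061) but by DESeq2. DESeq2 also called Arl4c of this list, as higher. The 10 efflux genes held 5 positive and 5 negative log2 fold changes, with a median of 0.02.

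Fatty acid genes rose in 9 of 19 tested cases (median 0.33), and none fell. Scd1, the desaturase that makes oleate (chr19:44394451-44407709), measured 60.5, 58.1, 57.1, 54.0 and 58.5 CPM in vehicle and 154, 135, 131, 129 and 118 CPM at 50 µM. No treated library came near the vehicle range, and the log2 fold change was 1.21 ± 0.07 (adjusted p = 1.1e-07). Scd2, the embryonic desaturase, rose by 0.49 ± 0.07, the synthase Fasn by 0.46 ± 0.07, the elongase Elovl6 by 0.49 ± 0.08, and Fads1 and Fads2, which desaturate polyunsaturated fatty acids, by 0.46 ± 0.06 and 0.62 ± 0.09. Aacs, which activates acetoacetate for lipid synthesis, rose by 0.78 ± 0.09, Acly by 0.43 ± 0.08 and Acsl3 by 0.33 ± 0.07. The carboxylase Acaca, which feeds Fasn, had 0.25 ± 0.08 and was not called.

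With the Y-linked level as a covariate, 12 of the 22 sterol enzymes and 8 of the 19 fatty acid genes passed, with medians of 0.89 and 0.40. With treated replicates 1 and 4 alone against vehicle, 13 and 7 passed, and with the 10 µM libraries in the covariate fit 19 and 8.

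**Figure D2:**
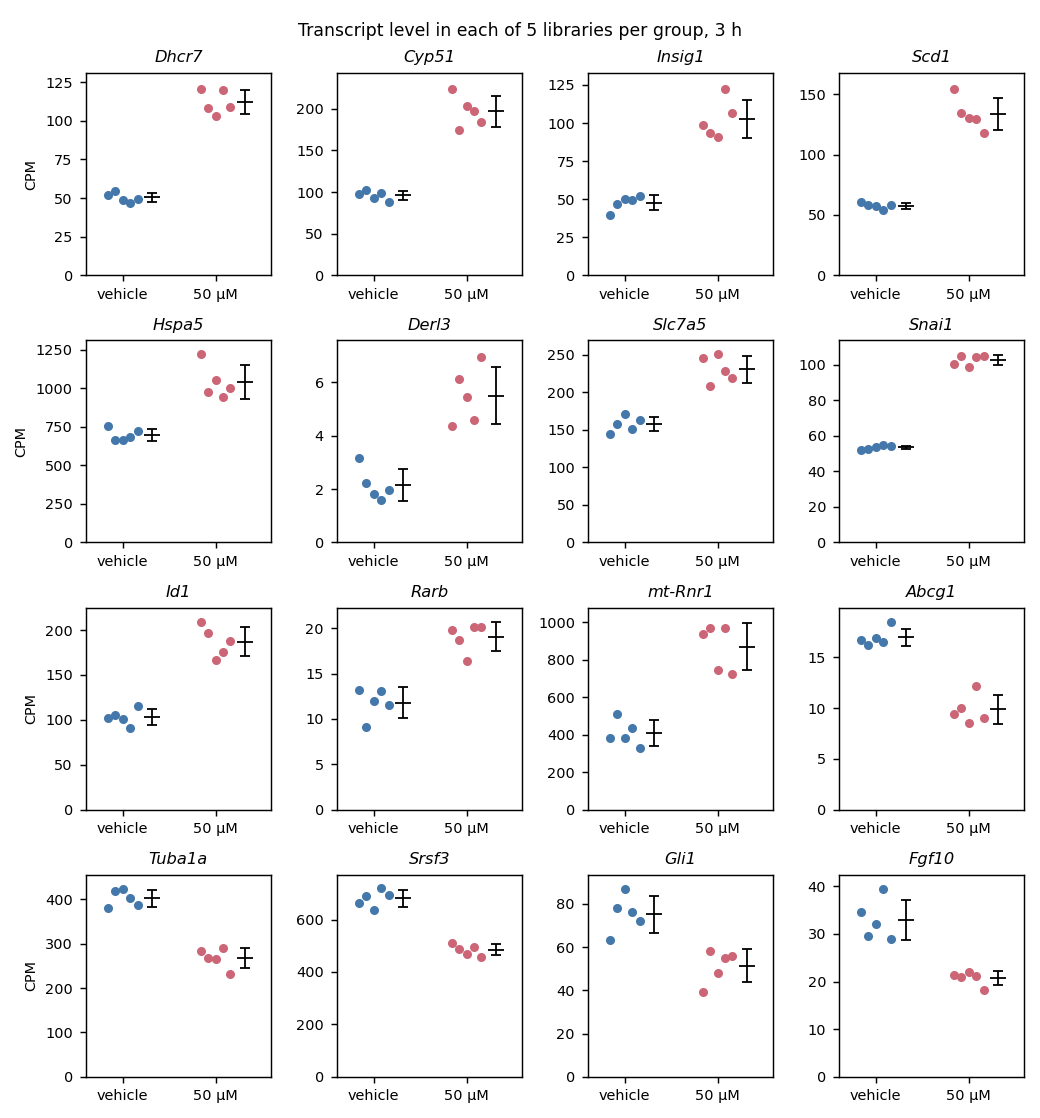
CPM of 16 named genes in each library of vehicle (blue) and 50 µM (red) at 3 h, with the mean and SD of 5 libraries beside the points and every y axis starting at 0. The 2 groups do not overlap for any of the 16 genes, 11 higher and 5 lower at 50 µM. These genes were picked from the called genes, most of which do not overlap between groups. Over all genes tested, 2.39% lie wholly above vehicle and 1.73% wholly below.

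Genes of protein folding in the ER rose as well, by smaller amounts. Of 20 chaperone genes 9 were called higher and none lower (median 0.29), and of 19 genes of ER-associated degradation and stress sensing 5 were called higher (median 0.14). The largest rise was that of Derl3, a channel component for removing misfolded proteins, from 2.15 ± 0.606 to 5.49 ± 1.07 CPM (1.36 ± 0.21; adjusted p = 0.0024). Hspa5, the main ER chaperone BiP (chr2:34771970-34777547), measured 753, 663, 662, 682 and 720.4 CPM in vehicle and 1219, 976, 1055, 944 and 1003 CPM at 50 µM, with all treated libraries above all vehicle libraries (0.58 ± 0.07; adjusted p = 0.00028). Calr, the calcium-binding lectin calreticulin, rose from 809 ± 76.1 to 1185 ± 54.4 CPM (0.55 ± 0.07), and the BiP cofactor Sdf2l1 from 7.40 ± 0.550 to 13.5 ± 1.91 CPM (0.86 ± 0.12). Manf, Creld2, Pdia4, Hyou1, Dnajb9 and Hsp90b1 rose by 0.52, 0.48, 0.45, 0.40, 0.38 and 0.35 on the log2 scale.

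In the degradation and sensing list, Xbp1, the transcription factor whose mRNA IRE1 splices, rose by 0.50 ± 0.06 (adjusted p = 0.00034), and the degradation genes Herpud1, Syvn1 and Selenos by 0.46, 0.37 and 0.38. The sensors themselves were not called: Atf6 had 0.14 ± 0.08, Ern1 (IRE1) -0.03 ± 0.09 and Eif2ak3 (PERK) 0.18 ± 0.10. None of 26 genes of the ER translocon and of entry into secretion was called by edgeR, with 4 at an unadjusted p below 0.05 and 3 called higher by DESeq2. With the Y-linked covariate, 2 of the 9 chaperone calls and 1 of the 5 degradation calls were left, with medians of 0.28 and 0.09, and 8 and 5 passed when the 10 µM libraries joined that fit. Of the 5 degradation calls, 2 were left with treated replicates 1 and 4 alone.

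The promoters of these genes were searched for the ER stress element, the paired motif CCAAT and CCACG separated by 9 bases, through which ATF6 and XBP1 are known to act. RefSeq promoter windows (GRCm38.p6, 250 bases before to 50 after a start, both strands) were on hand for 34 of the 39 listed ER genes. The element occurred in 37 of 27025 genes of the promoter table (0.137%), in 6 of 111 called-higher genes with a window (5.41%), in 0 of 62 called-lower genes, and in 10 of the 34 ER genes (29.4%). Among the 12 ER genes called higher with a window it occurred in 6. The windows of 4 ER genes that edgeR did not call, Canx, Pdia6, Dnajc3 and Ero1b, held it too, and DESeq2 called Canx and Pdia6 higher. The stretches below are from those 6 promoters, written 5′ to 3′ on the strand of the gene, with the 2 parts of the element in capitals; where the element lies on the other strand the capitals read CGTGG and ATTGG.
Hspa5, chr2:34771995-34772073, forward strand: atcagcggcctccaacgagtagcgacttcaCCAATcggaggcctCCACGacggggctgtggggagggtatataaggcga
Calr, chr8:84847045-84847123, reverse strand: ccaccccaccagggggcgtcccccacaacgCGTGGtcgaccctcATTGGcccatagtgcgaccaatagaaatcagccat
Creld2, chr15:88819490-88819568, forward strand: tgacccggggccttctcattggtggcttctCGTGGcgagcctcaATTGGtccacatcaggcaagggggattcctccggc
Derl3, chr10:75893212-75893290, forward strand: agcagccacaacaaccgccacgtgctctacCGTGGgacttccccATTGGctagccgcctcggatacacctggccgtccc
Syvn1, chr19:6046502-6046580, forward strand: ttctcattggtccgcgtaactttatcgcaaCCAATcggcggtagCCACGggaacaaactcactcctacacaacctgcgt
Hsp90b1, chr10:86705503-86705581, reverse strand: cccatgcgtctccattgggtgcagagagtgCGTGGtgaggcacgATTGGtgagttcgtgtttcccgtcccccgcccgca
Hsp90b1 held a second copy, farther from its start. The bases between the capitals differed in each of these windows. For the sterol regulatory element, searched as TCACNCCAC on both strands, 388 of the 27025 genes had a match (1.44%), and 1 of the 24 called sterol and fatty acid genes with a window had one, Hmgcs1, whose stretch is printed with the element in capitals.
Hmgcs1, chr13:119690184-119690252, forward strand: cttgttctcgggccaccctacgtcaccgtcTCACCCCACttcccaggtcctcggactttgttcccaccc
Such matches describe letters in these windows, and no binding was measured.

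Amino acid transport rose in 4 of 12 genes (median 0.22). Slc7a5, the large neutral amino acid transporter LAT1, measured 145, 159, 171, 152 and 163 CPM in vehicle and 246, 208, 251, 229 and 219.6 CPM at 50 µM (0.55 ± 0.07; adjusted p = 0.00032). The groups did not overlap. The cationic transporters Slc7a1 and Slc7a3 and the serine transporter Slc1a4 rose by 0.35, 0.51 and 0.42. The count was 2 without vehicle replicate 1 or 2 or treated replicate 1 or 5, and 1 with the Y-linked covariate, or 3 when the 10 µM libraries were added. It was 1 with treated replicates 1 and 4 alone. In the integrated stress response, the program that ATF4 drives, 2 of 19 genes rose. These were Ddit3 (CHOP), from 20.4 ± 1.87 to 30.2 ± 4.63 CPM (0.57 ± 0.11), and Eif4ebp1, a brake on translation (0.42 ± 0.09). Atf4 itself had 0.23 ± 0.09, Trib3 0.40 ± 0.14 and Chac1 0.48 ± 0.15, none of them called. Neither of the 2 calls was left with the Y-linked covariate, 1 was left when the 10 µM libraries were added to that fit, and 1 was left without vehicle replicate 1 or 3 or treated replicate 1 or 5. Treated replicates 1 and 4 alone left 1. None of 16 amino acid synthesis enzymes was called by edgeR, but 15 had positive log2 fold changes (median 0.21), 12 had an unadjusted p below 0.05, and DESeq2 called 4 higher, Asns, Cth, Mthfd2 and Psat1. None of 17 tRNA synthetases was called by edgeR, with 6 at an unadjusted p below 0.05 and 1 called by DESeq2.

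Tubulin genes fell together. Of 12 alpha and beta tubulin genes tested, 10 were called lower and none higher, with a median log2 fold change of -0.58. Tuba1a, the main neural and embryonic alpha-tubulin (chr15:98949837-98953703), measured 381, 419, 424, 403 and 386 CPM in vehicle and 284, 268, 266, 289.7 and 231 CPM at 50 µM (-0.59 ± 0.07; adjusted p = 0.00014). The highest treated library was far below the lowest vehicle library. Tubb5, the beta-tubulin with the highest level per length here (622 ± 41.4 FPKM in vehicle and 466 ± 30.5 FPKM at 50 µM in the authors' deposited values), measured 2125, 2335, 1957, 2105 and 2184 CPM in vehicle and 1588, 1626, 1478, 1759 and 1536 CPM at 50 µM (-0.42 ± 0.06). Further falls were those of Tubb2a (log2 fold change -0.66 ± 0.09), Tuba1c (-0.62 ± 0.11), Tubb6 (-0.59 ± 0.09), Tubb4a (-0.57 ± 0.10), Tubb4b (-0.47 ± 0.07), Tubb2b (-0.40 ± 0.07) and Tuba1b (-0.39 ± 0.06). Tuba4a overlapped between groups and its call (-0.59 ± 0.14) was lost in 8 of the 10 fits that left out a library.

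Outside the subunits of the microtubule wall, gamma-tubulin Tubg1, which nucleates microtubules, had -0.06 ± 0.09, and the centriolar Tubd1 and Tube1 had -0.00 ± 0.13 and -0.00 ± 0.12; none was called. Neuronal Tubb3 had -0.62 ± 0.25 with a wide error and was not called. Tubulin paralogs are similar in sequence, and the labels do not state how reads that fit several of them were counted. With the Y-linked covariate 3 of the 10 calls were left, at a list median of -0.47, the same as without it over all 15 tubulin genes tested. With the 10 µM libraries in that fit, 9 were left.

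**Figure D3:**
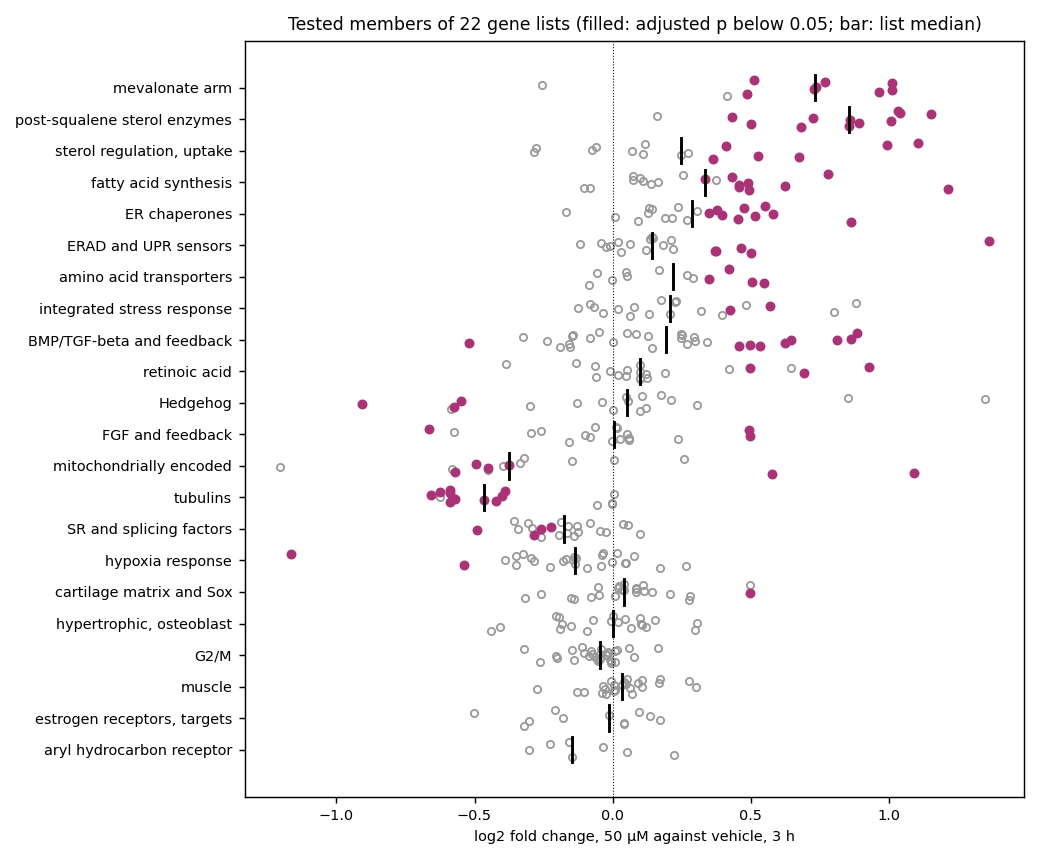
Log2 fold change of 50 µM against vehicle at 3 h (x axis) for every tested member of 22 gene lists (y axis); filled points have an adjusted p below 0.05 and the bar is the list median. The sterol lists lie to the right with medians of 0.73 and 0.86, the tubulins to the left with a median of -0.47, and the muscle, cell division and estrogen lists hold no filled point.

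Among factors of RNA processing, 4 of 22 SR proteins and splicing factors fell, with a list median of -0.18. Srsf3, a small SR protein that regulates its own splicing, measured 663, 692, 635, 721 and 692 CPM in vehicle and 511, 488, 470.2, 494 and 459 CPM at 50 µM (-0.49 ± 0.06; adjusted p = 0.00016), with no overlap. Srsf1 (-0.22), Srsf2 (-0.26) and Tra2b (-0.28) were the other calls. Of the 4 calls, 1 or 2 were left in each of the 10 fits that omitted a library. The Y-linked covariate left 1, treated replicates 1 and 4 alone left 1, and the covariate fit with the 10 µM libraries left 1. Single genes outside this list that were among the largest or firmest falls included Zfp207, a spindle and splicing protein, from 282 ± 37.6 to 179.7 ± 18.7 CPM (-0.65 ± 0.09), Hnrnpdl, from 447 ± 17.9 to 317 ± 28.0 CPM (-0.50 ± 0.07), and Rbm25 (-0.56 ± 0.08). Myef2 fell (log2 fold change -0.43 ± 0.06) and the host RNA Snhg4, a processed transcript (-0.93 ± 0.17).

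Transcripts of the mitochondrial genome moved in both directions. The ribosomal RNAs rose: mt-Rnr1, the small subunit RNA, measured 384, 511, 384, 435 and 327 CPM in vehicle and 936, 973, 746, 972 and 722 CPM at 50 µM (1.09 ± 0.11; adjusted p = 4.2e-05), and mt-Rnr2, the large one, rose by 0.58 ± 0.11. Every treated library was above every vehicle library for both. Of 13 protein-coding mitochondrial genes 4 fell: mt-Cytb of complex III from 3288 ± 240 to 2334 ± 184 CPM (-0.49 ± 0.07), and the complex I genes mt-Nd6 (-0.57 ± 0.09), mt-Nd4 (-0.45 ± 0.07) and mt-Nd1 (-0.38 ± 0.08). The complex IV gene mt-Co1 had 0.00 ± 0.07. None of 30 nuclear genes of the respiratory chain was called by edgeR or DESeq2 (median -0.00), with 1 at an unadjusted p below 0.05. The count of lower mitochondrial genes was 3 without vehicle replicates 2, 3 or 4 or treated replicates 1 or 5 and 6 without treated replicate 3, and with the Y-linked covariate 1 rise and 1 fall were left, or 5 of the 6 calls when the 10 µM libraries were added. Of the 6 calls, 3 were left with treated replicates 1 and 4 alone. The libraries were made by selecting polyadenylated RNA, so levels of ribosomal RNA here cover only molecules caught by that step.

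Among signalling genes, the targets and feedback genes of bone morphogenetic protein (BMP) held the most rises. Of 30 listed BMP and TGF-beta genes 8 were higher and 1 lower (median 0.19). Id1, a dominant negative helix-loop-helix protein and direct BMP target, measured 102, 105, 101, 90.7 and 115 CPM in vehicle and 208, 197, 167, 176 and 188 CPM at 50 µM, with no overlap (0.86 ± 0.08; adjusted p = 8.7e-06). Id3 and Id2 rose by 0.81 ± 0.08 and 0.65 ± 0.08, Atoh8 from 30.3 ± 3.42 to 56.0 ± 7.06 CPM (0.88 ± 0.10), and the homeobox gene Msx2 by 0.62 ± 0.13. The inhibitory Smads rose too, Smad6 by 0.50 ± 0.07 and Smad7 by 0.46 ± 0.08, with Smad9 at 0.53 ± 0.12. Nog, which encodes the BMP antagonist noggin, was the one listed gene that fell, from 42.1 ± 7.04 to 29.3 ± 4.30 CPM (-0.52 ± 0.12; adjusted p = 0.044), a call lost in 8 of the 10 fits that left out a library. The ligands Bmp2 (0.08 ± 0.08), Bmp4 (0.25 ± 0.07) and Bmp7 (0.25 ± 0.08) were not called. With the Y-linked covariate 5 of the 8 rises and not Nog were left, and 6 and Nog in the fit with the 10 µM libraries. Treated replicates 1 and 4 alone left 5 rises and not Nog.

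Snai1, a repressor of epithelial genes that several growth factors induce (chr2:167538195-167542814), was among the 3 genes with the smallest p. It measured 52.2, 52.5, 53.7, 54.7 and 54.2 CPM in vehicle and 100.4, 105, 98.8, 105 and 105 CPM at 50 µM (0.94 ± 0.06; adjusted p = 1.1e-07). The spread within each group was small against the gap between them. Its paralog Snai2 rose from 80.4 ± 7.42 to 119 ± 3.99 CPM (0.56 ± 0.07).

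Of 20 tested genes of retinoic acid signalling 3 rose. Rarb, a receptor that retinoic acid itself induces, measured 13.2, 9.06, 12.0, 13.1 and 11.6 CPM in vehicle and 19.8, 18.8, 16.4, 20.1 and 20.2 CPM at 50 µM (0.69 ± 0.11; adjusted p = 0.0034), and the groups did not overlap. The enzymes that break retinoic acid down rose as well, Cyp26b1 from 169.6 ± 12.2 to 239 ± 16.8 CPM (0.50 ± 0.07) and Cyp26a1 from 4.82 ± 1.70 to 9.15 ± 1.46 CPM (0.93 ± 0.22; adjusted p = 0.043). The Cyp26a1 call was lost in 8 of the 10 fits that left out a library. The synthesis enzyme Aldh1a2 had -0.13 ± 0.15 and was not called. With the Y-linked covariate 2 of the 3 rises were left, and all 3 when the 10 µM libraries were added. Treated replicates 1 and 4 alone left 2.

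In Hedgehog signalling 3 of 18 tested genes fell, among them Hhip and Gli1, both transcriptional targets of the pathway. The list as a whole did not fall: 11 log2 fold changes were positive and 7 negative, with a median of 0.05. At an unadjusted p below 0.05 it held 5 higher and 5 lower genes, and DESeq2 called 1 higher, Gas1, and 4 lower. Hhip, which binds the ligand at the cell surface, fell from 42.9 ± 7.95 to 22.9 ± 5.27 CPM (-0.91 ± 0.15; adjusted p = 0.0027). Gli1, the transcription factor used as a readout of the pathway, measured 63.2, 78.3, 86.7, 76.2 and 72.0 CPM in vehicle and 39.4, 58.3, 48.1, 55.1 and 56.1 CPM at 50 µM (-0.55 ± 0.10; adjusted p = 0.011). The groups did not overlap for either gene. The receptor Ptch1 had -0.30 ± 0.09 (adjusted p = 0.12; called by DESeq2 only) and the ligand Ihh 0.31 ± 0.10. None of the 3 falls was left with the Y-linked covariate, 1 with treated replicates 1 and 4 alone, and 2 in the fit of 15 libraries with that covariate.

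In fibroblast growth factor (FGF) signalling, 1 of 18 genes fell and 2 rose, or 16.7% of the list against 1.41% of all genes tested. Fgf10, the mesenchymal ligand that starts limb outgrowth, measured 34.5, 29.6, 32.03, 39.4 and 28.9 CPM in vehicle and 21.5, 20.9, 22.1, 21.1 and 18.3 CPM at 50 µM (-0.66 ± 0.10; adjusted p = 0.0012). All treated libraries were below all vehicle libraries. Fgfr3, the receptor of growing cartilage, rose from 109 ± 8.89 to 154 ± 12.1 CPM (0.50 ± 0.07) and the ligand Fgf18 from 25.7 ± 2.62 to 36.1 ± 2.91 CPM (0.49 ± 0.09). The feedback genes Spry2 (-0.00 ± 0.07) and Dusp6 (0.01 ± 0.09), which report FGF receptor activity, were not called. None of the 3 calls was left with the Y-linked covariate or with treated replicates 1 and 4 alone. All 3 were left when the 10 µM libraries joined the covariate fit. In Wnt signalling 0 of 20 genes were called by edgeR, with 5 at an unadjusted p below 0.05 and 1 called by DESeq2, and in Notch signalling 0 of 13, with 3 and 2.

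Genes of the receptors most often linked with bisphenol A did not pass the test. None of 11 tested estrogen receptor and target genes and none of 7 tested genes of the aryl hydrocarbon receptor was called by edgeR or DESeq2, and 1 and 0 of them had an unadjusted p below 0.05. Esr1, the main estrogen receptor, had 0.09 ± 0.33, and Cyp1b1, an aryl hydrocarbon receptor target, 0.05 ± 0.22, both with errors wide enough to hold sizeable changes. Among 5 tested targets of xenobiotic receptors, Por, the electron donor of cytochrome P450 enzymes and of Cyp51, rose by 0.38 ± 0.08. Sgk1, a kinase that glucocorticoids induce, rose by 0.53 ± 0.10, the single call among 11 glucocorticoid targets. None of 19 NRF2 targets, 14 heat shock genes, 21 p53 targets and 11 inflammatory genes was called by edgeR. At an unadjusted p below 0.05 these lists held 3, 4, 4 and 1 genes, and DESeq2 called 0, 2, 1 and 1. Of 33 immediate early genes Klf2, a flow- and statin-responsive factor of vessels, was the only call, lower from 20.7 ± 5.04 to 11.5 ± 1.59 CPM (-0.84 ± 0.16). That is 3.03% of the list, against 1.41% of all genes tested. Of 26 hypoxia genes 2 fell, Ankrd37 (-1.16 ± 0.26) and Pfkfb3 (-0.54 ± 0.12), with a list median of -0.14; both calls were lost without vehicle replicate 2, 3 or 4 or treated replicate 1 or 5, and with the Y-linked covariate. Both hypoxia calls were also lost with treated replicates 1 and 4 alone. The calls of Por, Sgk1 and Klf2 were lost with the Y-linked covariate too, those of Sgk1 and Klf2 also with treated replicates 1 and 4 alone, and that of Por in 3 of the 10 leave-one-out fits. With the 10 µM libraries in the covariate fit, these 3 genes and both hypoxia genes were called.

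Few markers of the limb's cell types were called at 3 h. The summed level of 25 cartilage genes lay between 5552 and 6877 CPM in vehicle and between 5523 and 6745 CPM at 50 µM, and Col2a1, the main cartilage collagen, had 0.02 ± 0.07. Sox9, which sets the cartilage fate, had -0.14 ± 0.08. Of 24 cartilage genes tested Fgfr3 alone was called, and the list median was 0.04, or -0.18 with the Y-linked covariate. No hypertrophic cartilage or bone gene of 21 tested, tendon gene of 18, muscle gene of 25, endothelial gene of 18, red cell gene of 13, epidermal gene of 20 or Schwann cell and neural gene of 13 was called by edgeR, nor any of 30 genes of cell division and 32 of DNA replication. At an unadjusted p below 0.05 these lists held 3, 0, 4, 1, 0, 1, 2, 6 and 1 genes in this order, and DESeq2 called 1, 0, 0, 1, 0, 1, 0, 1 and 0. The summed muscle genes lay between 2118 and 2316 CPM in vehicle and between 2179 and 2424 CPM at 50 µM, the endothelial genes between 714 and 801 CPM and between 742 and 780 CPM, and the macrophage genes between 117 and 139 CPM and between 118 and 131 CPM. No marker of these lists was at 0 in all libraries of a group.

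The single calls among markers were Cx3cr1, a chemokine receptor of macrophages, lower from 12.9 ± 1.16 to 7.54 ± 1.22 CPM (-0.77 ± 0.13), Kcnj8, a potassium channel of pericytes (-0.85 ± 0.20), the limb patterning gene Tbx3 (0.30 ± 0.07) and Wnt4 of the joint region (0.37 ± 0.08). These are shares of 5.26% of 19 macrophage, 10.0% of 10 pericyte, 3.57% of 28 patterning and 6.25% of 16 joint genes, against 1.41% of all genes tested. The calls of Kcnj8, Tbx3 and Wnt4 were each lost in 8 of the 10 fits that left out a library, and all 4 marker calls, Cx3cr1 included, were lost with the Y-linked covariate and with treated replicates 1 and 4 alone. With the 10 µM libraries in the covariate fit, Cx3cr1 and Tbx3 were called and Kcnj8 and Wnt4 were not.

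**Figure D4:**
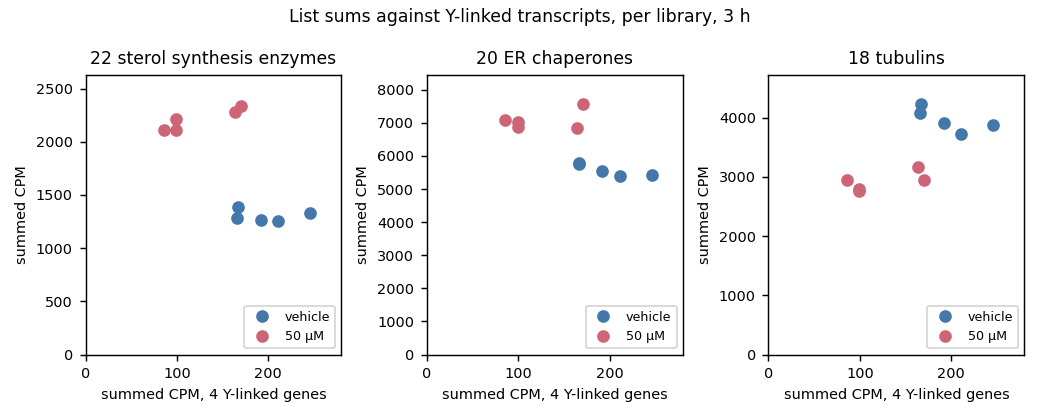
Summed CPM of the sterol synthesis enzymes, ER chaperones and tubulins (y axes, starting at 0) against the summed CPM of 4 Y-linked genes (x axis) in each of the 10 libraries. At a Y-linked level of 164 to 171 CPM, treated replicates 1 and 4 lie beside vehicle libraries on the x axis and with the other treated libraries on the y axis in each panel.

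Treated replicates 1 and 4, whose Y-linked level was nearest to vehicle, gave 1142 and 1093 CPM for the summed mevalonate arm, against 656 to 733 CPM in vehicle. Their summed post-squalene enzymes were at 1197 and 1190 CPM, against 593 to 649 CPM. The summed tubulins were at 2949 and 3172 CPM in these libraries, against 3722 to 4227 CPM in vehicle, and the summed ER chaperones at 7581 and 6855 CPM, against 5393 to 5778 CPM. None of these sums overlapped with vehicle. The lists were chosen with earlier results of these data known, so this separation is no independent check. The sums weigh most on abundant genes such as Tubb5. With treated replicates 1 and 4 alone, 3 of the 10 tubulin calls (list median -0.35) and 4 of the 9 chaperone calls (0.27) were left. The part of the sex mix in these sums was not tested. For single genes the Y-linked fit called 42 genes higher and 9 lower, and the fit with treated replicates 1 and 4 alone called 52 and 19. When the 5 libraries of 10 µM were added, 121 higher and 59 lower genes were called with the covariate and 132 and 63 without it. The summed Y-linked level of these 5 was 0.0449 CPM in replicate 4 and 61.7 to 178 CPM in the others. The slope of the covariate in that fit thus rests largely on 1 library.

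At 10 µM and 3 h no gene was called (0.0% of 17009 tested), with 974 genes at an unadjusted p below 0.05 and 14 genes called by DESeq2. That comparison uses the same vehicle libraries, so its values are only set beside those of 50 µM. Dhcr7 had 0.51 ± 0.07 at 10 µM and 1.15 ± 0.07 at 50 µM, and its 10 µM libraries measured 66.3, 75.9, 73.6, 70.4 and 73.2 CPM. Cyp51 had 0.39 ± 0.07 and 1.03 ± 0.07, and Scd1 0.38 ± 0.11 and 1.21 ± 0.07. For tubulins the 10 µM values lay near 0, at -0.03 ± 0.08 for Tuba1a and -0.06 ± 0.07 for Tubb5. The direct test of 50 µM against 10 µM called 45 of 17657 genes (0.255%), of which 27 were among the 151 higher and 15 among the 88 lower genes of 50 µM against vehicle. The doses differed for Cyp51 (adjusted p = 0.00024), Dhcr7 (0.00022), Scd1 (0.00064), Snai1 (0.0012), Tuba1b (0.0023), Tuba1a (0.0038), Srsf3 (0.004) and mt-Rnr1 (0.0067). In that test 10 of the 22 sterol enzymes were higher at 50 µM and 8 tubulins lower. For other genes no difference between the doses passed: Fgf10 had -0.42 ± 0.12 and -0.66 ± 0.10 (adjusted p = 0.59), Klf11 -0.45 ± 0.10 and -0.73 ± 0.10 (0.48) and Ddit3 0.49 ± 0.11 and 0.57 ± 0.11 (0.85).

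The later cultures used other libraries. At 24 h 585 of 16841 genes were called (3.47%; 1.37% higher and 2.1% lower) and at 48 h 1536 of 16732 (9.18%; 3.88% higher and 5.3% lower). Of the 151 genes higher at 3 h, 59 were called higher at 24 h, which is 39.1% of them and 25.5% of the calls there, and 84 at 48 h, which is 55.6% and 12.9%. Of the 87 lower genes tested later, 23 (26.4%; 6.5% of the calls there) and 25 (28.7%; 2.82%) were called lower. The median log2 fold change of the 151 genes went from 0.50 at 3 h to 0.28 at 24 h and 0.29 at 48 h, and that of the 87 genes from -0.49 to -0.24 and -0.18. These genes were chosen by their 3 h values, which by itself favours more extreme medians at 3 h. At 48 h 4 genes that were higher at 3 h (Fgf18, Glt8d2, Tmem119 and Nptxr) were called lower, and Tubb5, lower at 3 h, was called higher; Tmem119 and Nptxr are named because they complete this count.

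The difference of the effect between times was tested directly. The 24 h effect differed from that at 3 h in 107 of 18140 genes (0.59%) and the 48 h effect in 427 of 18117 (2.36%). Of the 151 higher genes 23 had a smaller effect at 24 h and 34 at 48 h. These genes were chosen from the same 3 h libraries that enter this test, which by itself favours a smaller later effect. Of the 22 sterol enzymes 11 had a smaller effect at 24 h and 13 at 48 h. Dhcr7 went from 1.15 ± 0.07 to 0.36 ± 0.07 at 24 h and 0.53 ± 0.07 at 48 h (adjusted p of the differences = 0.00023 and 0.00029). Idi1 was at 0.00 ± 0.10 and 0.30 ± 0.08, Fdft1 at -0.00 ± 0.06 and 0.20 ± 0.06, and Insig1 at 0.19 ± 0.07 and 0.32 ± 0.06, each with a smaller effect than at 3 h at both times. Id1 was at 0.11 ± 0.11 and 0.03 ± 0.06 (adjusted p of the differences = 0.007 and 2.9e-05).

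Some genes that fell at 3 h were level or higher later. Fgf10 was at 0.06 ± 0.08 and 0.15 ± 0.09 (adjusted p of the differences = 0.0031 and 0.00038), and Nog at 0.25 ± 0.10 and 0.25 ± 0.09 (0.032 and 0.0068). Tubb5 was at -0.17 ± 0.07 at 24 h and was called higher at 48 h (0.20 ± 0.06; adjusted p of the difference from 3 h = 8.6e-05), and 5 tubulins in all had a less negative or positive effect at 48 h. Fgf18 was called higher at 3 h and lower at 48 h (-0.41 ± 0.09; adjusted p of the difference = 0.00011), as was Glt8d2 (0.56 ± 0.12 and -0.63 ± 0.11). In contrast, Derl3 stood at 1.83 ± 0.23 and 1.29 ± 0.20, Rarb at 0.94 ± 0.19 and 1.16 ± 0.17, mt-Rnr1 at 0.87 ± 0.08 and 1.21 ± 0.15 and Abcg1 at -1.27 ± 0.13 and -1.43 ± 0.13, all called at all 3 times. Of the 39 ER genes Xbp1 alone passed the test of a difference from 3 h, at 48 h.

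**Figure D5:**
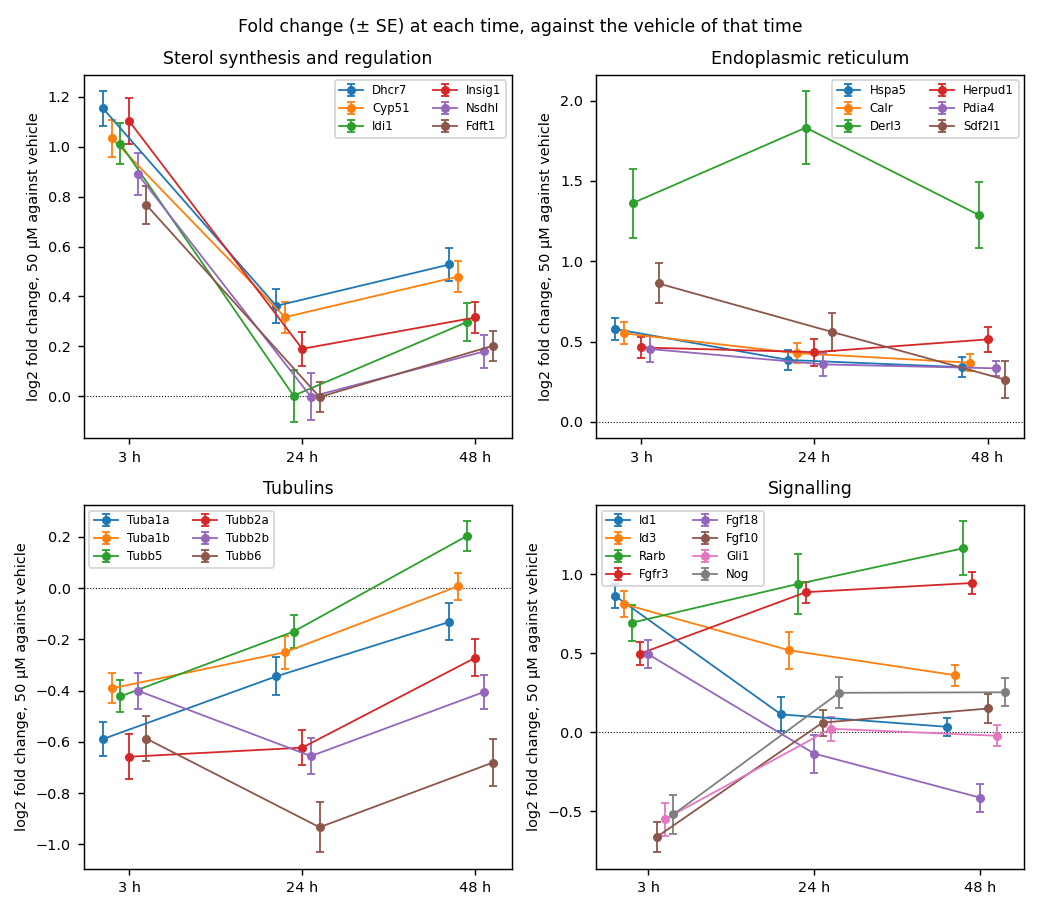
Log2 fold change of 50 µM against the vehicle of the same time (y axis, ± SE, 5 libraries per group) at 3, 24 and 48 h (x axis) for named genes of 4 groups. The sterol genes lie highest at 3 h, the ER genes lie above 0 at each time, the tubulins spread apart by 48 h, and Fgf10, Gli1 and Nog lie below 0 at 3 h and near or above 0 later.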

How the data were processed

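Forelimb buds were profiled by RNA sequencing of polyadenylated RNA, per the labels' protocols. The deposited tables hold raw read counts per gene, FPKM values, and the authors' log2 fold changes and p-values for each comparison, per the file headers. Per the submitters' processing notes, CASAVA 1.8, STAR 2.5, HTSeq 0.6.1, DESeq2 2 and mm10 were used. For the annotation release, counting mode and strand setting the sources used here give no entry, and reads shared by overlapping or antisense partners cannot be told apart.

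Counts were fitted with edgeR 4.0.16 (R 4.3.3): filterByExpr (minimum count 10, minimum total 15), TMM scaling, quasi-likelihood F test, and Benjamini-Hochberg adjustment over all genes tested at 0.05. Standard errors were derived from the F statistic, and CPM were TMM-scaled within the 10 libraries. Exceptions are the Y-linked sums printed per library and the 10 µM values, scaled within the 15 libraries of 3 h, and Ibsp, scaled within all 45 libraries. The table held 17550186 to 24278672 counts per library. Over all genes together counting error is small beside the spread between libraries. For 20 within-group pairs the variance was 6.84 to 28.7 times that of sampling noise (chi-square per degree of freedom). Abundant genes weigh most in these values, and counting error is a larger part of the spread for genes of a few CPM, such as Derl3. The procedure was tested on simulated data.

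Named genes were the 25 called genes that rose most and the 25 that fell most (without overlap between groups, at a mean count of 50 or more), the 15 of smallest p each way, all called members of 48 gene lists, and the 10 of smallest p in each dose or time test. Uncalled list members are given as values. A few genes that meet this rule are not reported here. Members and lists were chosen with earlier results of these data known, 901 of 902 listed symbols were found, and lists are described by counts and medians only.

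Alternatives were DESeq2 1.42.0, RLE and upper-quartile scaling, no filter, a filter of 1 CPM in 5 libraries, all 45 libraries, a replicate block, a Y-linked covariate and leaving out each library. The fits with treated replicates 1 and 4 alone and with the 15 libraries of 3 h, with and without the covariate, were chosen after seeing the data.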

Additional observations from a re-analysis of the deposited data

Results flagged for a closer look

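In 138 groups of 5 libraries (CPM of named genes and summed lists), 5 had 1 library apart from the other 4 by Dixon's criterion, which chance alone gives in about 1 of 20 groups. Vehicle replicate 4 was high for Hmgcs1 at 197.8 CPM, against 168.1 to 175.0 CPM in the others. Vehicle replicate 2 was high for Sqle at 115.8 CPM (others 90.14 to 95.95) and for the summed post-squalene enzymes at 649.46 CPM (others 593.1 to 603.73), and low for Klf11 at 25.25 CPM (others 30.9 to 33). Treated replicate 5 was low for the summed limb patterning genes at 2996.2 CPM, against 3165.4 to 3221.8 CPM.

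The effect of 50 µM differed between times, by the test of the difference itself. The 24 h effect minus the 3 h effect was, on the log2 scale, -0.7929 for Dhcr7, -0.7718 for Fdft1, -0.9158 for Insig1, -1.0116 for Idi1, -0.7192 for Cyp51, -0.8939 for Nsdhl, -0.7585 for Lss and -0.7652 for Msmo1. All are genes of sterol synthesis or its regulation whose effect was larger at 3 h. They were also called at 3 h, which by itself favours a larger effect at that time. The 48 h effect minus the 3 h effect was -0.8276 for Id1, -0.6746 for Scd1, -1.1828 for Glt8d2, -0.9068 for Fgf18, -0.7109 for Nsdhl, -0.7877 for Insig1 and -0.7141 for Idi1, and 0.626 for Tubb5, which had fallen at 3 h.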

How the results depend on the processing

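None of the 125 named called genes changed sign under any alternative run, but 20 lists, with median log2 fold changes of 0.15 or less in size except the sex-linked genes (-0.73), had a median of the other sign under at least 1 alternative, 13 of them with the Y-linked covariate (red cell -0.07 to 0.16, epidermal 0.14 to -0.08, aryl hydrocarbon receptor -0.15 to 0.04, cell division -0.05 to 0.04, FGF 0.00 to -0.05). Of 239 genes called at 3 h (151 higher, 88 lower), DESeq2 gave 513 (290 and 223) and the fit of all 45 libraries 463 (275 and 188), the Y-linked covariate 51 (42 and 9) and treated replicates 1 and 4 alone 71 (52 and 19), the last with fewer samples. Leaving out each library gave 141 to 289 (99 to 178 higher and 42 to 111 lower). DESeq2 called 151 of the 151 higher and 86 of the 88 lower genes. Each gene's group mean was taken out of the log CPM at 3 h, and the deviations were correlated between vehicle and treated libraries. Pairs of the same replicate number gave 0.0385 to 0.179 (5 pairs, median 0.139). Other pairs gave -0.174 to 0.114 (20 pairs, median -0.0362). The main fits use no pairing. A replicate block gave 324 calls (196 and 128) at 3 h, 1180 at 24 h and 2598 at 48 h. At 24 and 48 h the fits without it gave 585 and 1536. At 10 µM DESeq2 called 14 and the fit of all libraries 12, and leaving out a library gave 0 to 5. For 50 µM against 10 µM these were 98 and 119, and 17 to 51. At 24 h DESeq2 called 920, the fit of all libraries 885 and leaving out a library 345 to 661, and at 48 h leaving out a library gave 1116 to 1370. The 24 h against 3 h test gave 259 with DESeq2 and 62 to 159 without a library, and the 48 h against 3 h test 334 to 519. With the shorter motif cores, CCACG and CACCCCAC, 11 in place of 6 ER genes and 2 in place of 1 sterol genes had a match, but these cores occur in 50.9% and 3.84% of tested genes with a window. The cause of these shifts was not tested. Depth limits genes near 1 CPM, such as Esr1, whose errors are wide.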

Other observations

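Several called genes outside the lists belong to known groups; they were picked after their values were seen. The arrestin-domain genes moved in opposite directions, Arrdc4 lower and Arrdc3 higher, and their relative Txnip, an inhibitor of glucose uptake, was lower. Arrdc4 measured 61.8, 63.1, 52.7, 73.2 and 57.6 CPM in vehicle and 42.0, 39.8, 40.0, 39.4 and 42.0 CPM at 50 µM, with no overlap (-0.60 ± 0.08; adjusted p = 0.0008 by edgeR's quasi-likelihood test). Arrdc3 rose from 225 ± 14.0 to 315 ± 35.8 CPM (mean ± SD, n = 5; 0.49 ± 0.08), and Txnip fell from 187 ± 18.3 to 143 ± 16.2 CPM (-0.39 ± 0.09) with overlapping groups.

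Some single called genes have roles in lipid metabolism, with no list of such genes tested. Pcyt2, which makes phosphatidylethanolamine, rose by 0.60 ± 0.11 on the log2 scale, Slc25a1, which exports citrate from mitochondria for lipid synthesis, by 0.51 ± 0.11, Idh1, a source of NADPH, by 0.44 ± 0.07, Mttp, which loads lipoproteins, by 0.66 ± 0.15, Rdh11, a retinal reductase, by 0.57 ± 0.08, and the lipase Lipe by 0.66 ± 0.11. Among transcription factors, Gata2 rose from 9.61 ± 1.92 to 17.0 ± 2.82 CPM (0.82 ± 0.14), Dlx3 from 17.8 ± 4.30 to 31.1 ± 4.60 CPM (0.80 ± 0.15), Irx1 by 0.52 ± 0.08 and the clock output genes Dbp and Tef by 0.49 ± 0.12 and 0.38 ± 0.08. Outside the list of 22 SR proteins and splicing factors, some single called genes that encode RNA-binding or splicing proteins were lower: Tardbp (log2 fold change -0.37 ± 0.07), Srrm1 (-0.34 ± 0.06), Luc7l (-0.33 ± 0.06), Rbm39 (-0.37 ± 0.09) and Bclaf1 (-0.37 ± 0.09). Called genes of this kind that rose were not counted, so these falls add nothing to the result of that list.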
